A study of Mus musculus with 24 samples.

Results

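The chemokines, interleukins and interleukin receptors of cultured mouse myoblasts were followed by RNA-seq through differentiation and upon silencing of Tead1 and Tead4. The members were all genes whose symbol begins with Ccl, Cxcl, Cx3cl or Il followed by a digit, which gave 116 of the 28109 genes counted. C2C12 cells, a mouse myoblast line from the C3H strain kept in DMEM, and primary myoblasts (PMs), isolated from 3 to 4 week-old C57BL/6 mice and kept on matrigel in IMDM, were transfected with a control siRNA (siControl, against luciferase in the labels) or with siRNA pools against Tead1 and Tead4 (siTead1/4). RNA was taken 24 h after transfection (day 0) and after 3 and 6 days in 2% horse serum, which makes 12 groups of 2 biological replicates and 24 libraries. Cell type goes with strain, medium and matrigel, so these cannot be told apart.

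Chemokines are small secreted proteins that attract leukocytes through G protein-coupled receptors, and most interleukins are secreted signals read by single-pass receptors of several chains. Skeletal muscle is both a source and a target of them: Il6 and Il15 are known as muscle-derived cytokines, Il4 acts on myoblast fusion, and Cxcl12, Ccl2 and Cx3cl1 guide muscle progenitors and the macrophages of regenerating muscle. Tead1 and Tead4 are transcription factors of the Hippo pathway that bind the MCAT motif found in front of many muscle genes.

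Because silencing targeted MCAT-binding factors, the promoters of the members that responded to it are shown first. Of the 10 members called upon silencing in any comparison, 8 had a RefSeq promoter entry (build GRCm38.p6, 250 bases before to 50 after each gene start; the counts use mm9), with 10 promoters between them. An MCAT match (CATTCCA or CATTCCT, both strands) was in a promoter of 1 of these members, the second start of Il1r1, printed with its matches in capitals. Il12a was the member with the most regular response to silencing, and its printed promoter, at the first start, had no match to any motif searched. The promoter of Cxcl14 had a match to a motif like the interferon response element (TTTC and TTTC with 2 free bases between them). That of Il20rb had a match to an NF-kB motif (GGG, 2 free bases, TT, 1 free base and CC). Both strands were searched for each motif, and matches are again in capitals.
Il12a, first start, chr3:68690394-68690693, plus strand: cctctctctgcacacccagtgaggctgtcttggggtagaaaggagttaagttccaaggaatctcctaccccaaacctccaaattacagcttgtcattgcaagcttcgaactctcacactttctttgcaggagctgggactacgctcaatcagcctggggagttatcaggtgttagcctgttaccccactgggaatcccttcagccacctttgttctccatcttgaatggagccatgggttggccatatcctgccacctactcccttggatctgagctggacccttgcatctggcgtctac
Il1r1, second start, chr1:40266336-40266635, plus strand: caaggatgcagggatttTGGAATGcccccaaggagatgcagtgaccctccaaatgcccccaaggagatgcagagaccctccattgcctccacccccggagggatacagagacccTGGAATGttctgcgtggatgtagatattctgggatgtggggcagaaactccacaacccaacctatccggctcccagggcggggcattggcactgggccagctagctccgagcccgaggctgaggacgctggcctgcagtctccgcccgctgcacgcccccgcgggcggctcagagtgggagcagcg
Cxcl14, chr13:56296502-56296801, minus strand: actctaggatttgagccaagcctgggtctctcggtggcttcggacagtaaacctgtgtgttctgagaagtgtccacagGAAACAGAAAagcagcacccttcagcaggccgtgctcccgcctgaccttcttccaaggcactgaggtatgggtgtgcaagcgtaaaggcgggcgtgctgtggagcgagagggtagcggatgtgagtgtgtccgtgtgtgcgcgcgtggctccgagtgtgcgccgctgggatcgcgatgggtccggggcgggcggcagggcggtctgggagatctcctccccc
Il20rb, chr9:100486424-100486723, minus strand: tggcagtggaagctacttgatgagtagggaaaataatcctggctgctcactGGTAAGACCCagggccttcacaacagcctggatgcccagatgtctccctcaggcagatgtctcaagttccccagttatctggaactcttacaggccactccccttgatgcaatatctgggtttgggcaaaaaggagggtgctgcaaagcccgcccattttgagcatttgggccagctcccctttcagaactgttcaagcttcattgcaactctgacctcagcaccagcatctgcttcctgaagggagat

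Promoters were found for 87 of the 115 member symbols, with 105 starts. MCAT matches were in 8.57% of these against 9.35% of all 32851 promoters. Matches to the NF-kB motif were in 19% of the members' promoters against 4.79% of all, and those to the AP-1 motif TGANTCA in 16.2% against 7.81%. Those to the motif like the interferon response element were in 5.71% against 3.44%. These shares describe letters in a short window and carry no test, and members with several starts count more than once. The paper that reported these data placed most Tead4 binding sites of C2C12 cells far from gene starts, where this window does not reach. The shares therefore do not tell whether Tead factors bind near the members.

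The libraries held 25453830 to 52784510 counts (median 39204772). Members took 0.0631 to 0.108% of the counts in C2C12 libraries and 0.0529 to 0.067% in PM libraries. In siTead1/4 PMs Tead4 fell at all days (log2 fold change -2.36, -2.58 and -1.75 at days 0, 3 and 6, adjusted p = 0.00026, 9.3e-05 and 0.002), and Tead1 fell at days 0 and 3 (-1.44 and -1.68, adjusted p = 0.021 and 0.011), with -1.10 at day 6 (adjusted p = 0.14). In C2C12 cells Tead4 fell at days 0 and 3 (-2.21 and -1.76, adjusted p = 0.036 and 0.043), with -1.28 at day 6 (adjusted p = 0.32). Tead1 did not pass there (-2.46, -1.09 and -0.52, adjusted p = 0.17, 0.5 and 0.95), and the 2 siTead1/4 day 0 libraries held 28.85 and 4.499 CPM of it. All 9 myoblast and muscle markers were detected, and the pan-leukocyte marker Ptprc stayed at or below 0.0593 CPM. The 12 macrophage markers summed to 4.95 to 15 CPM, with 1 to 3 of them over 1 CPM in each group and C1qa without a count in any. Summed neutrophil and lymphocyte markers stayed at or below 0.868 and 2.2 CPM. Summed endothelial markers stood at 0.402 to 4.12 CPM in C2C12 and 7.25 to 29.5 CPM in PM libraries. These are bulk cultures, in which fewer cells of a type and less RNA per cell cannot be told apart.

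Receptor chains passed the filter on low values more often than ligands. A level below is a library's count scaled to its size and composition (CPM). Genes were tested where their counts passed that filter: 59 members were tested in C2C12 cells, 57 in PMs and 64 in the fit of all libraries. By role, 24 of 33 receptor chains outside the Il1 family were tested and 5 of 9 Il1 family receptors, against 9 of 20 CC chemokines, 9 of 14 CXC and CX3C chemokines, 6 of 10 Il1 family ligands and 9 of 28 other interleukin ligands. The ligands left out included Ccl3, Ccl4, Cxcl2, Il1a, Il2, Il4, Il10, Il13 and Il17a, and the highest group mean of any untested member was 0.2088 CPM (Il1r2, the decoy receptor of Il1). Il4, the ligand of the well-expressed Il4ra, had 4 counts in all 24 libraries together.

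Per kilobase of exon, Il6st (gp130), the signalling chain shared by the receptors of Il6, Il11, Lif and Osm, was the highest member in siControl cells of both types. Its level per kilobase was 37.93 CPM per kb in C2C12 cells (lowest to highest of 6 libraries, 19.86 to 51.96) and 49.78 in PMs (26.06 to 61.79). In C2C12 cells it was followed by Il13ra1, the chain that pairs with Il4ra to bind Il4 and Il13 (16.94, 14.93 to 19.52 CPM per kb), Il17rc (14.79, 10.46 to 20.08), Il17ra (13.4) and Cx3cl1, the membrane-bound chemokine fractalkine (12.83). In PMs it was followed by Il17ra, the chain common to Il17 receptors (12.37, 8.524 to 20.49), Cxcl12 (9.315, 1.015 to 25.93), Ccl2 (9.304, 2.27 to 21.25) and Il11ra1 (8.247, 0.9654 to 13.2). The lowest Il6st library lay above the highest of Il13ra1 but not above that of Il17rc in C2C12 cells, and above the highest of the 4 followers in PMs. The ranges of the followers overlapped in each cell type, so their order is not firm. Reads from exons shared with another gene cannot be told apart. Among others, this touches 41.6% of the exon length of the tested Ccl25 entry (a second Ccl25 entry on the same strand). It also touches 30.5% of that of Il2rg and 15% of that of Il10rb (genes on the same strand). For Cxcl16 it is 18.3% (a gene on the opposite strand, in libraries without strand).

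**Figure D1:**
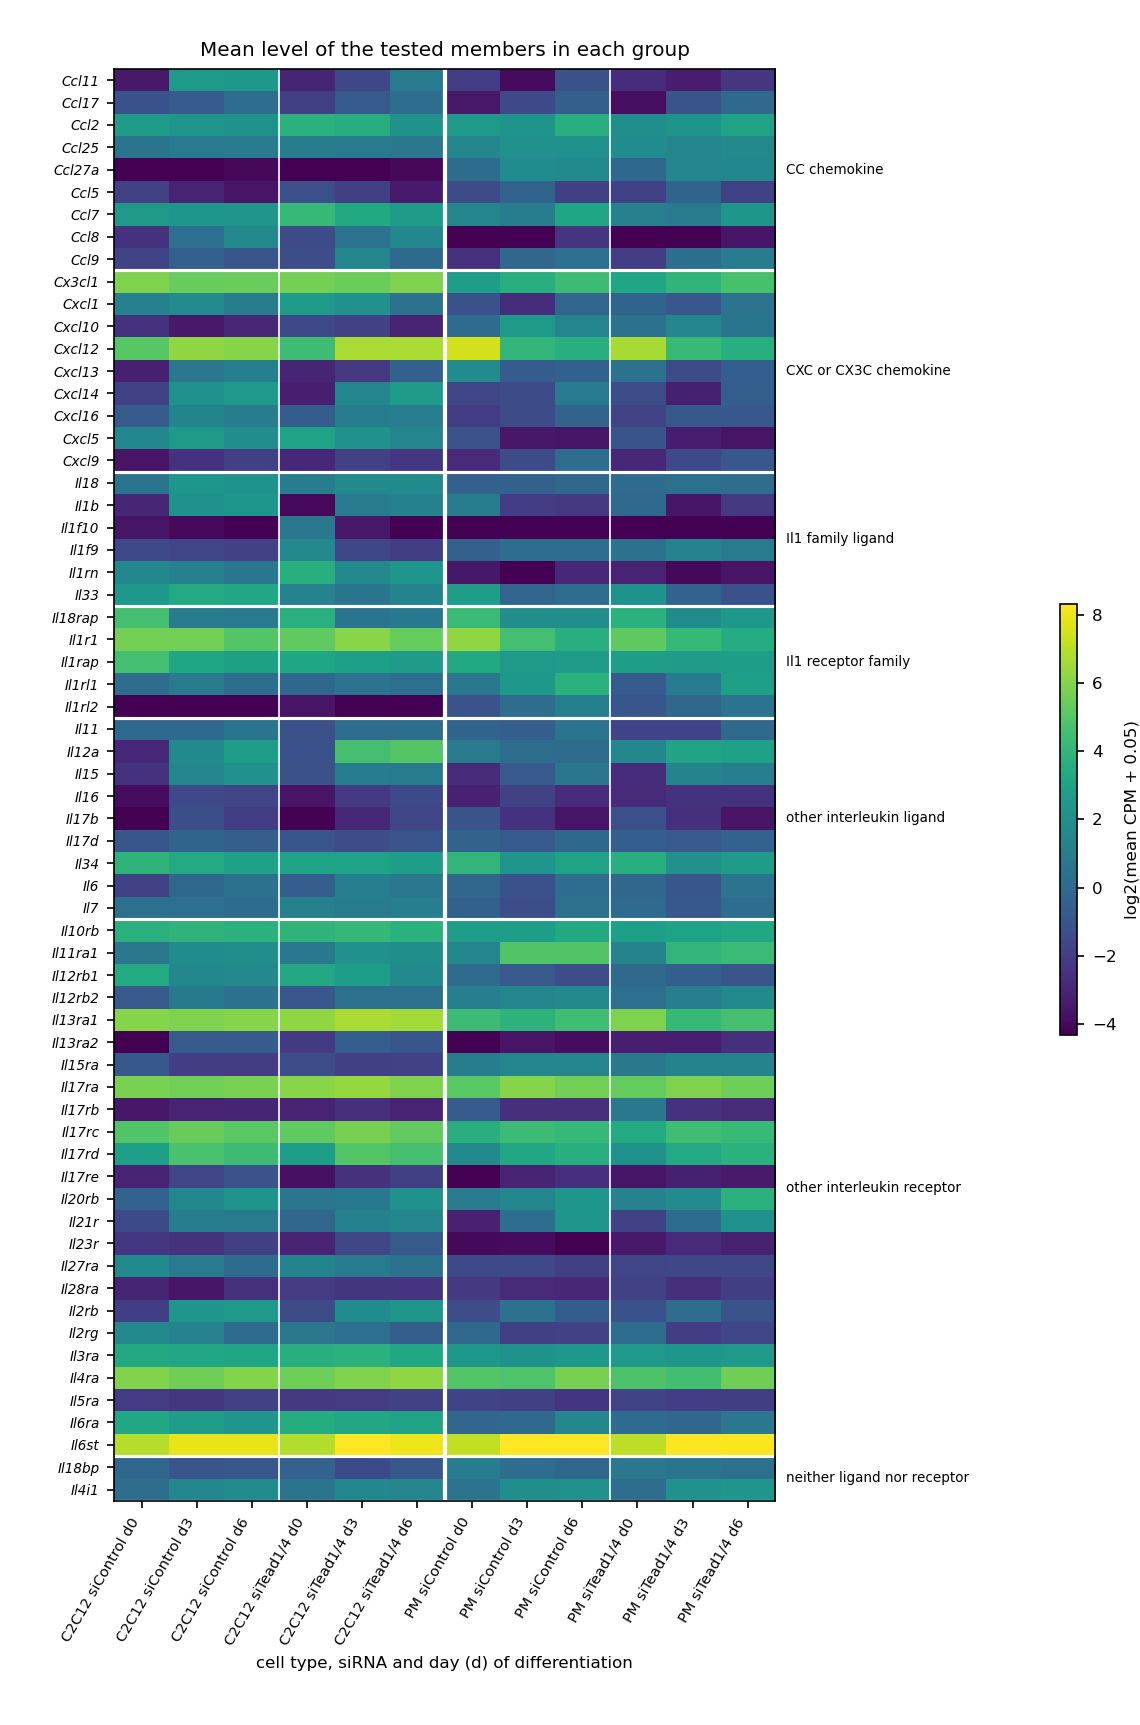
Mean level of the 64 tested members (rows, by role) in the 12 groups (columns) as log2(mean CPM + 0.05). Il6st was the brightest row in most groups, most chemokines and ligands stayed dark, and Cxcl12, Ccl11 and Il11ra1 changed colour with day and cell type.

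The first comparison asked how the members change as siControl cells differentiate. A member was called when its adjusted p was under 0.05 over all tested genes (edgeR quasi-likelihood, Benjamini-Hochberg) and its absolute log2 fold change over 1, and day 3 and day 6 were each set against the same 2 day 0 libraries. In C2C12 cells 21 of 59 members were called at day 3, 18 up and 3 down, where 28.7% of all tested genes were called (16% up, 12.7% down). At day 6 27 were called, 20 up and 7 down, against 31.1% of all genes (17.1% up, 14% down). Leaving out siControl day 0 replicate 2 brought this count to 17. The median log2 fold change of the members was 0.516 at day 3 and 0.337 at day 6, beside -0.0137 and -0.0121 over all tested genes. Fibroblast markers rose over the same days: 7 of 8 tested were called up at day 3 and 6 at day 6, and their summed level went from 851 to 1350 CPM at day 0 to 2930 to 3670 at day 3 and 2920 to 2990 at day 6. Summed muscle markers went from 1120 to 1290 CPM to 15800 to 18100 and then 15600 to 18800, and the part of either list in the members' changes was not tested. Of these calls 14 at day 3 and 12 at day 6 held under each of 8 alternatives (another tool, scaling or filter, the replicate block, and leaving out each of the 4 libraries).

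Among the chemokines of C2C12 cells, Ccl11 (eotaxin, the eosinophil attractant, mm9 chr11:81871325-81876457) went from 0.0282 and 0.0533 CPM at day 0 to 5.33 and 5.87 at day 3 and 5.53 and 5.05 at day 6. Both later days lay far above day 0 in both replicates (log2 fold change 6.89, SE 0.698, adjusted p = 5.5e-05 at day 3, and 6.81, adjusted p = 5.3e-05 at day 6). Cxcl13, the B cell attractant, rose from 0.113 and 0 CPM to 2.12 and 1.05 and then 2.52 and 1.74 (4.98, SE 0.971, adjusted p = 0.0027, and 5.41, SE 0.968, adjusted p = 0.0015). Cxcl14 rose from 0.366 and 0.0888 to 4.58 and 4.31 CPM at day 3 and 4.16 and 6.68 at day 6 (4.34, SE 1.29, adjusted p = 0.022, and 4.62, SE 1.3, adjusted p = 0.016). The Cxcl14 call at day 3 was lost without any one of its 4 libraries (log2 range 3.55 to 5.57) and at day 6 without siControl day 0 replicate 2 (3.84 to 5.85). Ccl8, a monocyte attractant, rose by 3.20 and 4.56, the first lost without siControl day 0 replicate 2 (2.75 to 3.66). Cxcl16, the membrane-bound ligand of Cxcr6, rose by 2.15 and 1.78. Its calls were lost without that library at both days (1.77 to 2.61 and 1.22 to 2.24) and, on day 6, without siControl day 6 replicate 2. Ccl5 alone of the chemokines fell, at day 6, from 22 to 3 counts over the group (6.54-fold lower, 95% interval 1.96 to 34.1), a call lost without any one of its 4 libraries and under DESeq2 (log2 range -6.28 to -1.97).

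Among the ligands of the Il1 family in C2C12 cells, Il1b, the proinflammatory cytokine made as a precursor (chr2:129190306-129196875), stood at 0.0844 and 0.0711 CPM at day 0, 4.51 and 4.31 on day 3, then 6.28 and 3.54 on day 6. The groups were far apart (log2 fold change 5.75, SE 0.604, adjusted p = 6.9e-05, and 5.92, SE 0.605, adjusted p = 5.2e-05). Il18 rose from 1.52 and 1.28 CPM to 5.76 and 3.99 and then 5.84 and 2.91 (1.76 and 1.62). Its call was lost at day 3 without any one of the 4 libraries (1.48 to 2.00) and at day 6 without siControl day 0 replicate 1 or 2 or day 6 replicate 1 (1.02 to 2.04). The accessory chains of this family went the other way. Il18rap, the accessory chain of the Il18 receptor, fell from 19.3 and 27.4 CPM to 1.51 and 2.41 at day 3 and 1.39 and 2.04 at day 6 (-3.61, SE 0.458, adjusted p = 0.00023, and -3.82 at day 6). Il1rap, the co-receptor shared by Il1, Il33 and Il36, fell from 21.1 and 24.6 CPM to 8.87 and 8.12 and then 6.78 and 7.82 (-1.47 and -1.69).

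Among the other interleukins, Il12a, the alpha subunit of Il12 and Il35 (chr3:68494566-68502469, 8 merged exons), rose in C2C12 cells from 0.0282 and 0.142 CPM at day 0 to 3.82 and 2.63 at day 3 and 8.96 and 4.54 at day 6. No later library came near day 0 (log2 fold change 5.00, SE 0.726, adjusted p = 5e-04, and 6.08, SE 0.728, adjusted p = 0.00014). Its partner in Il12, Il12b, had 4 counts in 3 of the 24 libraries. Il15, a cytokine that is abundant in muscle (chr8:84855536-84927121), rose from 0.141 and 0.124 CPM to 2.69 and 2.75 and then 5.32 and 3.41 (4.30, SE 0.499, adjusted p = 0.00013, and 4.99, SE 0.504, adjusted p = 4.9e-05). Il6 stood at 0.338 and 0.107 CPM at day 0, 1.25 and 0.546 on day 3, then 0.52 and 2.14 on day 6. Its call at day 6 (2.57, adjusted p = 0.03) was lost without siControl day 0 replicate 2 or day 6 replicate 2 (1.28 to 3.54). Il17b had no count at day 0 and 34 at day 3, at least 11.3-fold higher against a floor of 3 counts over the group. It had 15 counts at day 6, at least 5.61-fold higher, a call lost without siControl day 0 replicate 2 (log2 range 5.55 to 6.25). Il34, a ligand of Csf1r, went from 15.4 and 14.6 CPM to 8.42 and 6.72 at day 6 (-1.02), a call lost without any one of its libraries, under DESeq2 and with median of ratios size factors (-1.20 to -0.85).

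Among the receptors in C2C12 cells, Il2rb, the beta chain through which Il2 and Il15 signal, rose from 0.169 and 0.231 CPM to 4.62 and 5.28 at day 3 and 4.99 and 6.42 at day 6 (4.55 and 4.75, adjusted p = 0.00014 and 9.9e-05). Il13ra2, the decoy receptor of Il13, had no count at day 0, 51 at day 3 and 53 at day 6, at least 17-fold and 19.8-fold higher. Il20rb, a chain of the receptors of Il19, Il20 and Il24, rose by 1.96 and 2.62, and Il17rd, a receptor-like protein that damps Fgf signalling, by 1.81 and 1.46, the latter lost without siControl day 0 replicate 1 or day 6 replicate 2 (1.16 to 1.81). The chains that fell were Il12rb1 (from 7.94 and 13.4 to 2.69 and 3.18 CPM, -1.90 at day 3 and -1.83 at day 6) and, at day 6, Il2rg, the common gamma chain (-1.64), and Il27ra (-1.76). The call of Il27ra was lost without replicate 1 of day 0 or day 6 (-2.30 to -1.31) and that of Il2rg without these or day 6 replicate 2 (-1.80 to -1.44). Il6st went from 103 and 135 CPM to 204 and 269 and then 203 and 271, 0.95 at both days, just under the fold threshold (adjusted p = 0.03 and 0.028).

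In PMs 22 of 57 members were called at day 3, 9 up and 13 down, where 32.3% of all tested genes were called (17.5% up, 14.9% down). At day 6 31 were called, 18 up and 13 down, against 35.5% of all genes (20.2% up, 15.3% down). The median log2 fold change of the members was -0.0932 at day 3 and 0.476 at day 6, beside 0.0145 and 0.0294 over all genes. Of 9 fibroblast markers tested in PMs 3 were called up at day 3 and 6 at day 6, with summed levels of 576 to 580 CPM at day 0, 1720 to 1980 at day 3 and 4280 to 5190 at day 6. Their part in the members' changes was not tested. Of these calls 16 at day 3 and 22 at day 6 held under each of the 8 alternatives.

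Among the receptors of PMs, Il21r, the receptor of Il21, went from 0.0424 and 0.0845 CPM at day 0 to 1.26 and 0.986 at day 3 and 3.53 and 6.16 at day 6 (log2 fold change 4.08, SE 0.555, adjusted p = 0.00011, and 6.18, SE 0.526, adjusted p = 3.4e-06). Il11ra1, the specific receptor of Il11, rose from 3.07 and 2.42 CPM to 33.1 and 26.4 and stayed at 28.1 and 31.1 (3.37, SE 0.191, adjusted p = 3.5e-07, and 3.35). Il11ra2, a near-identical copy, can share its reads, so the split between them is uncertain. Il6st rose from 153 and 136 to 316 and 322 and then 311 and 318 CPM (1.09, SE 0.111, adjusted p = 1.4e-05, and 1.05), and the call at day 6 was lost without siControl day 0 replicate 2 (0.97 to 1.15). Il6ra went from 0.784 and 0.902 CPM to 1.01 and 0.885 at day 3 and 2.72 and 3 at day 6, a rise of 1.70 that was called at day 6.

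Among the receptors of the Il1 family, Il1r1, the signalling receptor of Il1, fell in PMs from 70.1 and 78.4 CPM to 20.6 and 25.2 and then 9.87 and 14.8 (-1.75 and -2.66). Il18rap fell there too, from 17.6 and 21.7 CPM to 3.93 and 3.64 and then 4.11 and 3.29 (-2.43 and -2.47). Il1rl1, the receptor of Il33, went from 1.74 and 1.47 CPM to 8.59 and 2.05 and then 20.8 and 6.23, with replicate 1 above replicate 2 at both later days. Its call at day 6 (3.00, adjusted p = 0.0077) was lost without day 6 replicate 1 or day 0 replicate 2 (1.89 to 3.62). Il1rl2, the receptor of Il36, rose at day 6 (2.26), lost without day 6 replicate 1 (1.28 to 2.84).

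Among the chemokines of PMs, Cxcl12, the ligand of Cxcr4, stood at 159 and 186 CPM at day 0, 15.7 and 15.8 on day 3, then 16.5 and 7.27 on day 6. The day 0 libraries stood apart from all later ones (-3.51, SE 0.355, adjusted p = 1.3e-05, and -3.92, adjusted p = 6.3e-06). Cxcl13 fell with it, from 3.73 and 3.1 CPM to 0.589 and 0.581 and then 0.841 and 0.587 (-2.59 and -2.32). Cxcl5, a neutrophil attractant, fell there from 33 counts over the group to 3 and 2, which is 10-fold (95% interval 3.14 to 51) and 12.3-fold (3.14 to 106) lower. Chemokines that rose were Ccl9 (2.83 and 3.17), Ccl17 (from 3 counts over the group to 23 and 40, 8.43-fold with an interval of 2.55 to 43.8, and 17.9-fold with 5.7 to 90.4) and Ccl27a (1.69 and 1.57). The near-identical copy Ccl27b makes the counts of Ccl27a uncertain. The Ccl17 call at day 3 was lost without day 0 replicate 1 or day 3 replicate 2 (log2 range 1.75 to 6.57). At day 6 Cxcl14 rose from 0.191 and 0.338 to 1.81 and 1.89 CPM (2.76) and Cx3cl1 from 6.29 and 6.71 to 18.6 and 21.2 CPM (1.55). Cxcl9, an interferon-induced ligand of Cxcr3, also rose at day 6 (3.41), lost without either day 0 library (3.27 to 3.60). The monocyte attractant Ccl7 rose then too (1.57), lost without day 6 replicate 1 or day 0 replicate 2 (1.01 to 1.98). Ccl11 fell from 16 counts to 1 at day 3 (14.6-fold, interval 2.26 to 610), a call lost without replicate 2 of either day and under DESeq2 (-5.99 to -2.71).

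Of the ligands of PMs outside the chemokines, Il15 alone rose, from 0.106 and 0.0845 CPM to 0.449 and 0.607 and then 1.91 and 1.08 (2.36, SE 0.556, adjusted p = 0.004, and 3.84, SE 0.519, adjusted p = 9.4e-05). Il1b fell from 2.06 and 1.92 CPM to 0.337 and 0.0505 and then 0.0323 and 0.293 (-3.43 and -3.65), and Il33, the nuclear alarmin, from 7.71 and 5.21 to 0.926 and 0.733 and then 1.55 and 0.62 CPM (-3.02 and -2.64). Il34 fell from 14.3 and 17.6 CPM to 5.11 and 4.47 and then 7.31 and 8.35 (-1.79 and -1.09), the second lost without day 6 replicate 1 or day 0 replicate 2 (-1.23 to -0.94).

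Some members were called in the same direction in both cell types. Over the 52 members tested in both, the increases shared at day 6 were 8 of 16 in C2C12 cells (50%) and of 15 in PMs (53.3%): Cxcl14, Cxcl16, Il11ra1, Il15, Il17rd, Il20rb, Il21r and Il4i1, a secreted amino acid oxidase. Over all 14577 genes tested in both, 61.9% and 56.6% of the increases at day 6 were shared. Il15 and Il20rb kept these calls under all alternatives in both cell types. In C2C12 cells the calls of Cxcl14, Cxcl16 and Il17rd were lost as above, that of Il21r without siControl day 0 replicate 1 or 2 or day 6 replicate 2 (1.18 to 3.21), that of Il11ra1 without any one of the 4 libraries (1.01 to 1.51) and that of Il4i1 without day 6 replicate 1 (1.19 to 1.87). The decreases shared at day 6 were Il12rb1, Il18rap, Il2rg and Il34 (57.1% of those in C2C12 cells and 33.3% of those in PMs, beside 66.2% and 59.3% over all genes), and that of Il12rb1 in PMs was lost without siControl day 0 replicate 1 or day 6 replicate 2 (-2.02 to -1.10). At day 3 the increases shared were 4 of 15 in C2C12 cells (26.7%) and of 8 in PMs (50%), beside 56.7% and 55.7% over all genes. The decreases shared then were 2 of 3 in C2C12 cells (66.7%) and of 12 in PMs (16.7%), beside 66.2% and 54.9%. Called in opposite directions were Ccl11, Cxcl13 and Il1b at day 3 and Cxcl13, Il17b and Il1b at day 6, each up in C2C12 cells and down in PMs. These were 20% of the members called up in C2C12 cells at day 3 and 18.8% at day 6, beside 4% and 3.87% over all genes.

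**Figure D2:**
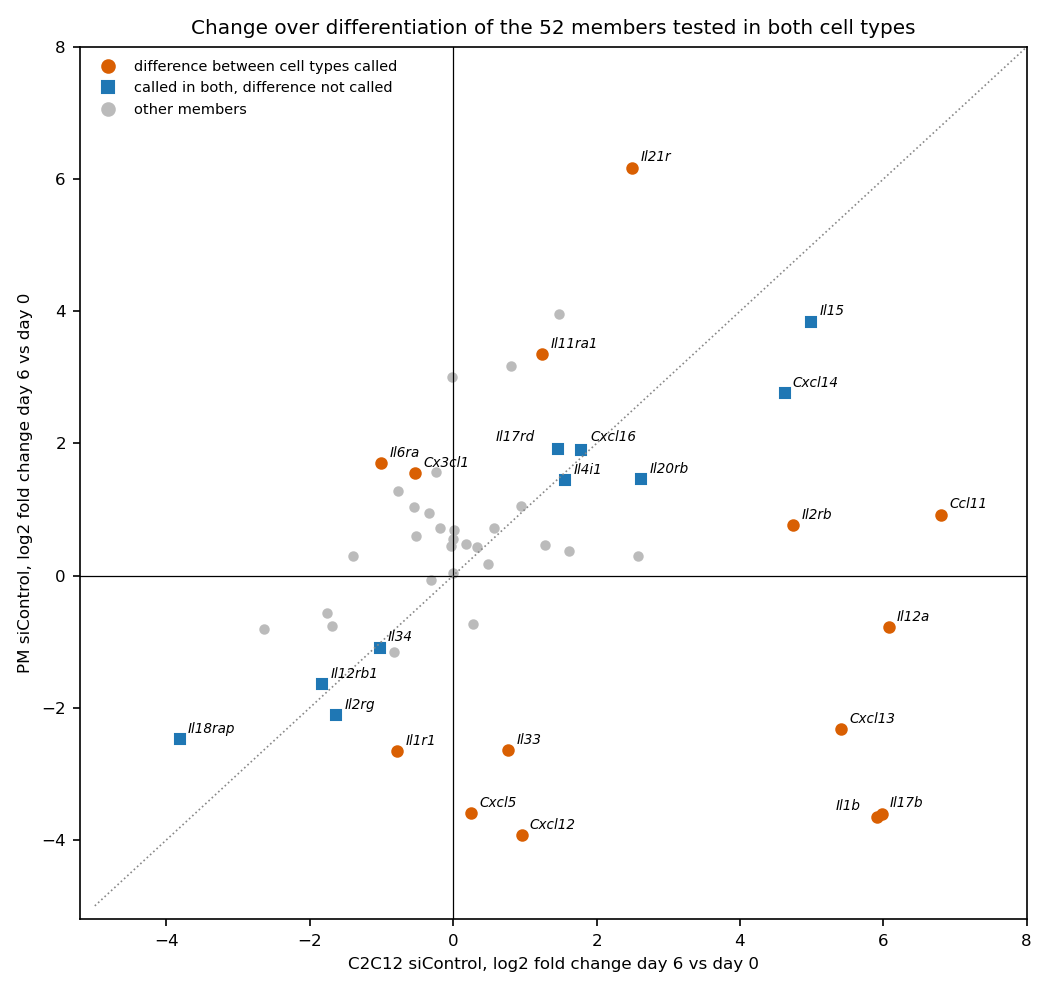
Log2 fold change of siControl cells against day 0 in C2C12 cells (x) and PMs (y) for the 52 members tested in both. Blue squares were called in both cell types and orange points had a called difference between them, with Il1b, Cxcl13 and Il12a far to the right of the diagonal.

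The difference itself, the change in PMs minus that in C2C12 cells, was tested in the fit of all libraries. It was called for 14 of 64 members at day 3, 3 higher and 11 lower in PMs, where 11.2% of all genes were called (3.79% higher, 7.44% lower). At day 6 it was called for 14, 4 higher and 10 lower, where 12.7% of all genes were (5.27% higher, 7.43% lower). At day 3 the count was 9 without PM siControl day 0 replicate 2. The differences in Ccl11 (-10.51 at day 3, adjusted p = 1.7e-05), Il1b (-9.16, adjusted p = 8.2e-06), Cxcl13 (-7.56, adjusted p = 6.1e-05), Il12a (-5.61, adjusted p = 0.00019), Cxcl12 (-4.61, adjusted p = 0.005) and Il1r1 (-1.66, adjusted p = 0.00083) held under each of 12 alternatives at day 3 and at day 6. So did Il11ra1 in the other direction (2.29, adjusted p = 0.0015). Ccl11 had 1 count over the PM group at day 3, so the size of its difference there is uncertain. In the siControl C2C12 libraries of day 0, Il1b had 3 and 4 counts, Cxcl13 4 and 0, and Il12a 1 and 8. The sizes of their differences are uncertain too. The order of the cell types turned over for Il12a: in siControl PMs it lay at 1.72 and 1.75 CPM at day 0, above C2C12 cells, and at 0.809 and 1.3 at day 6, below them. It turned over for Cxcl12 too, with 159 and 186 CPM in PMs and 34.9 and 30.8 in C2C12 cells at day 0, and 16.5 and 7.27 against 87.1 and 43.3 at day 6. Il6ra (2.73, adjusted p = 0.0015) and Cx3cl1 (2.11, adjusted p = 0.0042) were called for the difference at day 6. In C2C12 cells Il6ra stood at 8.67 and 10.3 CPM at day 0 and 4.88 and 4.81 at day 6, and Cx3cl1 at 58 and 60.7 and then 27.9 and 56.7, neither of them higher at day 6.

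**Figure D3:**
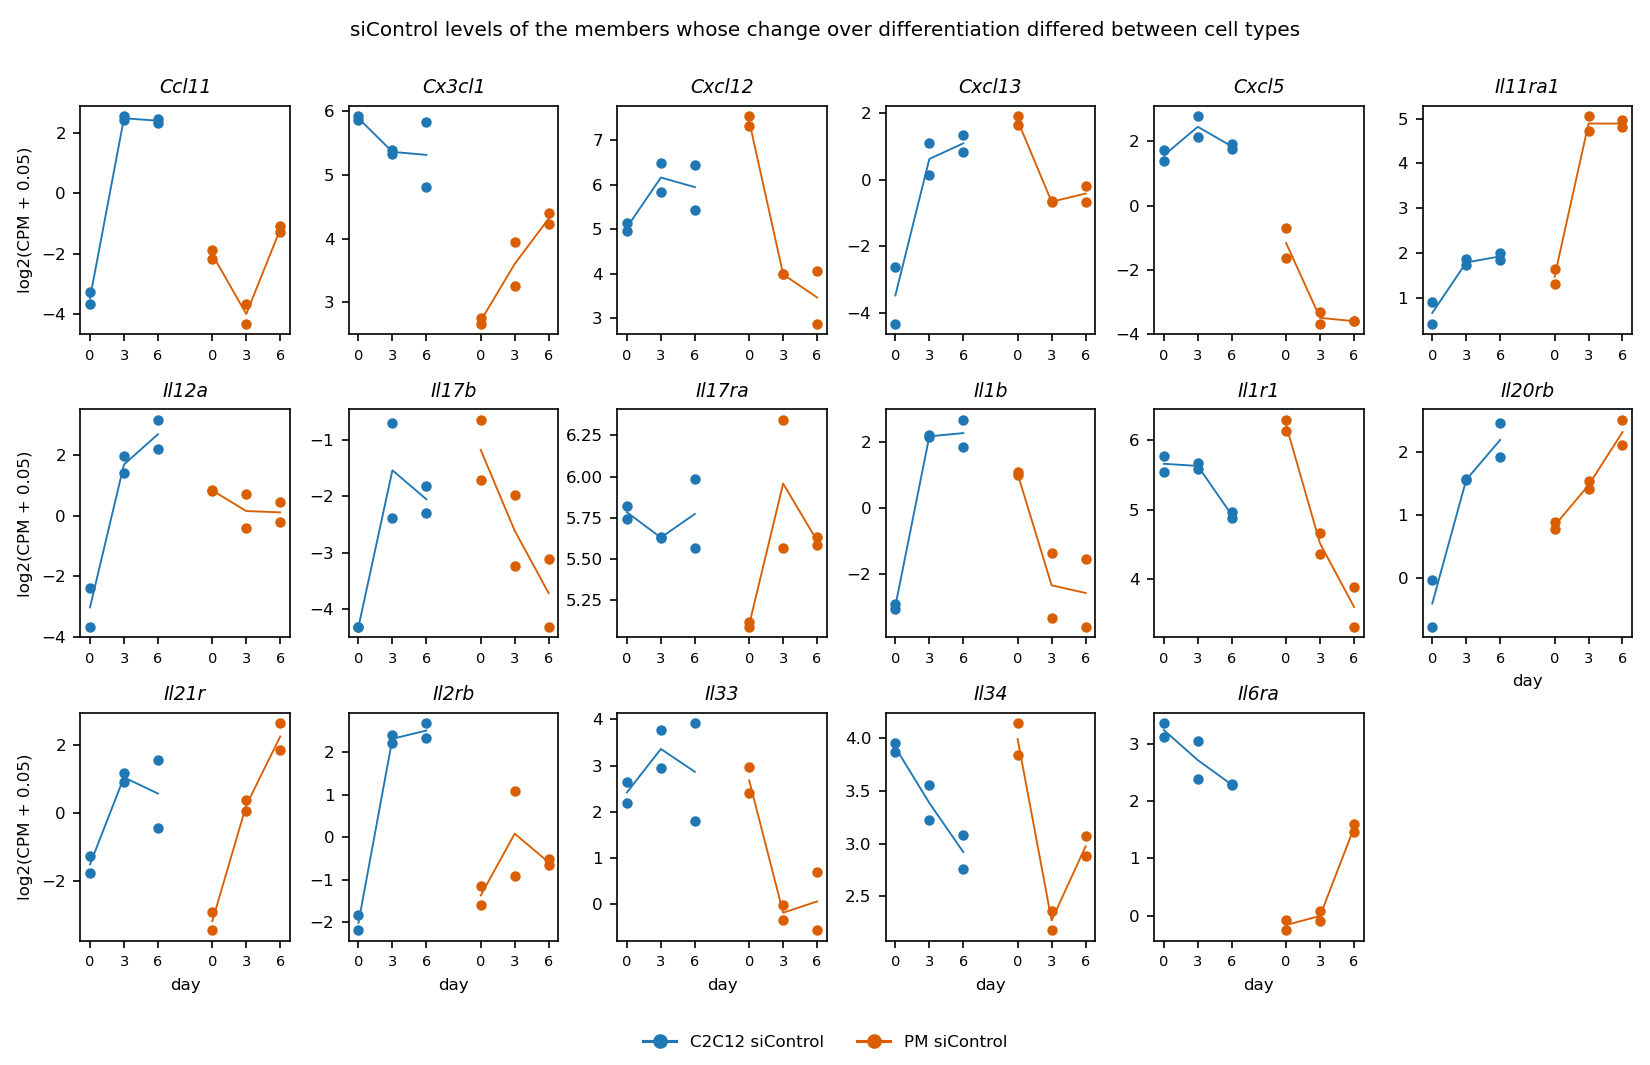
Level of each siControl library, as log2(CPM + 0.05) by day, for the 17 members whose change differed between the cell types at day 3 or 6; lines join the means of the log values. Il1b, Ccl11 and Cxcl13 rose in C2C12 cells (blue) from below the day 0 level of PMs (orange) to above the level of PMs on the later days.

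Set side by side on the same day, siControl PMs and C2C12 cells differed in 30 of 64 members at day 0, 14 higher and 16 lower in PMs, where 26.8% of all genes were called (16.3% higher, 10.5% lower). At day 3 they differed in 38, 9 higher and 29 lower, against 29.8% of all genes (17.2% higher, 12.6% lower). On day 6 it was 33, 11 higher and 22 lower, against 24.9% (15.7% higher, 9.22% lower). The median log2 difference of the members was 0.0431, -1.12 and -0.594 at days 0, 3 and 6, beside 0.0278, 0.0309 and 0.0184 over all genes. Of these calls 19, 25 and 18 held under each of 8 alternatives. Among the receptor chains outside the Il1 family 2 of 24 were higher in PMs at day 3 and 12 were lower, and among the CXC and CX3C chemokines 1 of 9 was higher and 6 were lower.

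Several members were close to absent from 1 cell type. Il1rn, the antagonist of the Il1 receptor, stood at 2.22, 3.54, 1.89, 2.49, 1.39 and 1.67 CPM in the 6 siControl C2C12 libraries, and no PM library passed 0.118 CPM. This was 83.5-fold lower at day 0 (95% interval 28.3 to 407) and at least 55.4-fold lower at day 3. Cxcl5 was 143-fold lower in PMs at day 3 (48.5 to 694), and Ccl8 at least 29.8-fold lower. In the other direction Ccl27a had no count in siControl C2C12 cells at days 0 and 3 and 0.954 to 4.1 CPM in siControl PMs at these days, at least 31.8-fold and 107-fold higher. Il1rl2 had none there at any day, at least 13-fold, 33-fold and 58.5-fold higher in PMs. Cxcl10, an interferon-induced ligand of Cxcr3, stood at 2.41 and 9 CPM in siControl PMs at day 3 and at 0.0236 and 0.0607 in C2C12 cells (log2 difference 6.94, SE 1.25, adjusted p = 0.00027). Il15ra, the chain that presents Il15, was higher in PMs at each day (2.00, 3.84 and 3.71, adjusted p = 0.016, 0.00026 and 0.00053), the first lost without PM siControl day 0 replicate 1 or C2C12 siControl day 0 replicate 2 (1.55 to 2.28). Il15 itself was lower at days 3 and 6 (-2.36 and -1.55), the second lost without PM siControl day 6 replicate 2 or C2C12 siControl day 6 replicate 1 (-2.04 to -1.21).

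The second comparison asked which members respond to the silencing of Tead1 and Tead4. In PMs 3 of 57 were called at day 0, 1 up and 2 down, where 2.6% of all genes were called (1.5% up, 1.1% down). On day 3 there were 3 calls, 2 up and 1 down, against 3.3% of all genes (2.1% up, 1.2% down), and on day 6 there were 2, both up, against 0.743% (0.465% up, 0.279% down). In C2C12 cells 2 of 59 were called at day 0, 1 up and 1 down, against 0.438% of all genes (0.137% up, 0.301% down), and 2 at day 3, again 1 up and 1 down, against 1.27% (0.19% up, 1.08% down). Without the filter on low counts 11 were called in C2C12 cells at day 0, 9 up and 2 down (1.92% of all genes, 0.876% up and 1.04% down), and 9 at day 3, 5 up and 4 down (4.22%, 1.87% up and 2.35% down). The chemokines among those added at day 0 were Ccl7 (1.68, adjusted p = 5.4e-05), Cxcl5 (1.43, adjusted p = 0.0049), Cxcl1 (1.27, adjusted p = 0.028) and Ccl2 (1.11, adjusted p = 0.031). The siTead1/4 and siControl libraries overlapped in Ccl7 (4.96 and 30.8 against 2.45 and 8.46 CPM) and Ccl2 (5.24 and 21.4 against 3.43 and 8.58), and did not in Cxcl1 or Cxcl5. None was called at day 6 in C2C12 cells (0.0457% of all genes) by edgeR, with 9 members at an unadjusted p under 0.05. DESeq2 called 3 there (Il12a, Il1rn and Ccl11), where it called 0.572% of all genes. The median log2 fold change of the members upon silencing was 0.201, 0.148 and 0.0476 in C2C12 cells and -0.0852, -0.0403 and -0.0948 in PMs at days 0, 3 and 6, and that of all genes lay between -0.00657 and 0.0174.

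Il12a was the member called in the most silencing comparisons, 3 of 6. In siTead1/4 PMs it stood at 9.01 and 7.8 CPM at day 3, against 0.701 and 1.59 in siControl PMs, and at 6.99 and 8.12 at day 6, against 0.809 and 1.3. The siTead1/4 libraries lay above both siControl libraries at each of these days (log2 fold change 2.85, SE 0.36, adjusted p = 0.0016 at day 3, and 2.83, SE 0.369, adjusted p = 0.0073 at day 6). At day 0 it stood at 2.47 and 3.48 against 1.72 and 1.75 CPM (0.77, adjusted p = 0.21). In siTead1/4 C2C12 cells it stood at 17.4 and 30.8 CPM at day 3, against 3.82 and 2.63, and at 34.4 and 26.7 at day 6, against 8.96 and 4.54, again with no overlap. The call was made at day 3 (2.87, SE 0.535, adjusted p = 0.034) and missed at day 6 (2.17, adjusted p = 0.25), where DESeq2 made it (2.17, adjusted p = 0.0021). The day 3 call in PMs held under all 8 alternatives (2.39 to 3.57), and the day 6 call was lost without PM siControl day 6 replicate 1 (2.53 to 3.22). The call in C2C12 cells was lost without siControl day 3 replicate 1 or 2 or siTead1/4 day 3 replicate 2 (2.43 to 3.24). Of the 7 macrophage markers tested in PMs, Mrc1 alone also rose upon silencing at these days, to 8.30 and 5.03 CPM at day 3 against 2.1 and 2.15 in siControl (1.64, adjusted p = 0.0059) and to 2.89 and 2.64 at day 6 against 1.07 and 0.88 (1.5, adjusted p = 0.038). The 12 macrophage markers summed to 9.84 to 15 CPM in siTead1/4 PMs at day 3 against 6.42 to 7.38, and to 6.81 to 7.01 at day 6 against 5.4 to 6.03. At day 3 Ptprc, Emr1, Aif1, Fcgr1 and C1qa had no count in any of these PM libraries. Summed endothelial markers stood at 15.8 to 29.5 CPM in siTead1/4 PMs at day 3 against 7.25 to 21.4, and at 8.62 to 15.4 at day 6 against 8.61 to 15.2. Summed muscle markers stood at 27700 to 29200 CPM against 31600 to 32800 at day 3, and at 25400 to 25800 against 27100 to 31200 at day 6. The part of these markers in the Il12a and Il15 results was not tested.

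**Figure D4:**
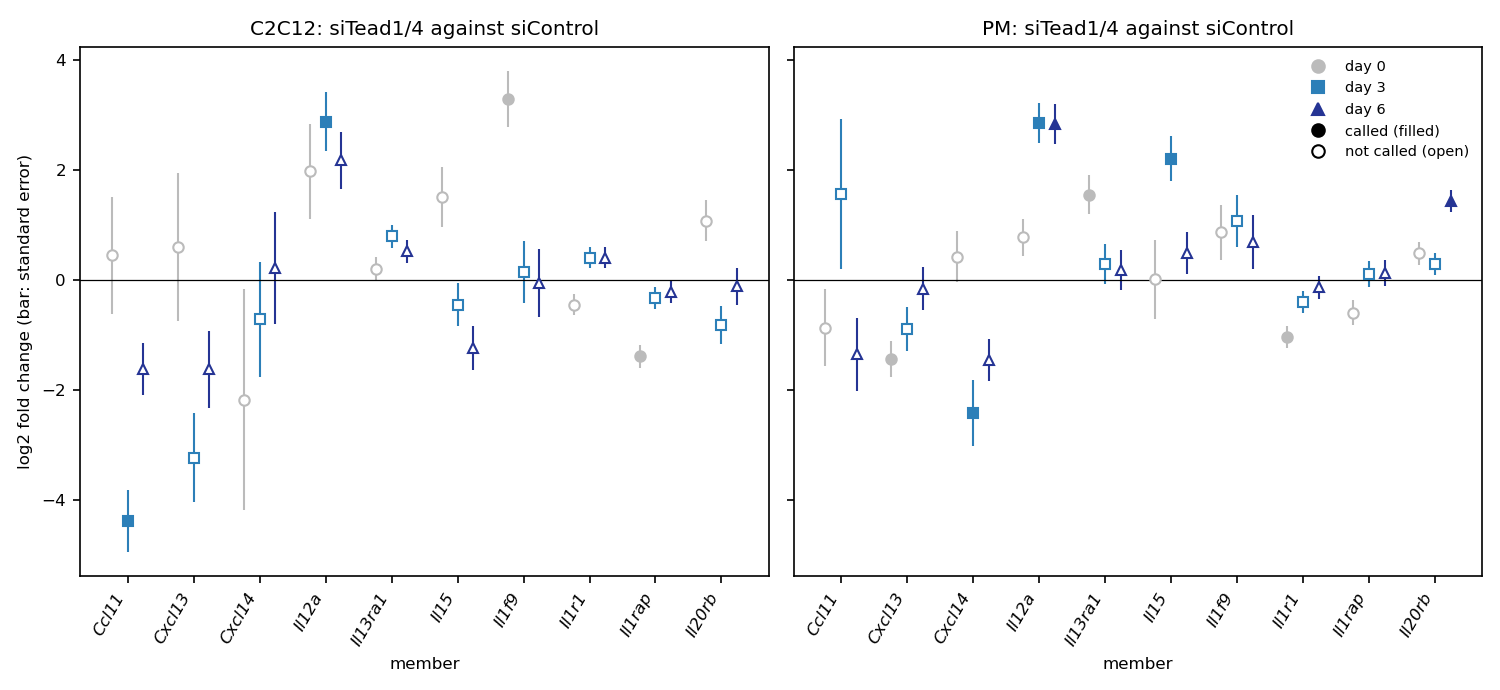
Log2 fold change of siTead1/4 against siControl, with its standard error, for the 10 members called at any day in C2C12 cells (left) and PMs (right). Il12a lay above 0 at all days in both, with filled symbols (called) at day 3 in C2C12 cells and at days 3 and 6 in PMs.

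Il15 responded in PMs. At day 3 it stood at 2.55 and 2.37 CPM in siTead1/4 PMs, against 0.449 and 0.607 in siControl PMs (2.20, SE 0.408, adjusted p = 0.01), a call lost without PM siControl day 3 replicate 1 or siTead1/4 day 3 replicate 1 (2.01 to 2.44). By day 6 the PM groups were close, at 2.31 and 1.89 against 1.91 and 1.08 CPM. In C2C12 cells the siTead1/4 levels lay at or below those of siControl at both days, at 1.4 and 2.66 against 2.69 and 2.75 at day 3 and 2.33 and 1.37 against 5.32 and 3.41 at day 6 (-1.24 at day 6, adjusted p = 0.45). The difference of the silencing effects between the cell types was called for Il15 at day 3 (2.63, SE 0.587, adjusted p = 0.036), 1 of 64 members where 1.25% of all genes were called (1.02% higher, 0.236% lower in PMs). It held without C2C12 siTead1/4 day 3 replicate 2 and was lost without any one of the other 7 libraries (2.23 to 3.18). At days 0 and 6 edgeR called no member for this difference (0.00591% and 0.0354% of all genes, 0.0295% higher at day 6), with 5 and 4 at an unadjusted p under 0.05. DESeq2 called none at day 0 and Il20rb at day 6 (1.55, adjusted p = 0.012), where it called 0.118% and 0.221% of all genes.

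The remaining PM calls at day 0 were 3 genes of receptor signalling and chemoattraction. Il13ra1 (chrX:33652105-33711254) stood at 60.4 and 57.2 CPM in siTead1/4 PMs against 21.6 and 18.3 in siControl (1.55, SE 0.358, adjusted p = 0.028), and at days 3 and 6 the groups overlapped. Il1r1 (chr1:40281925-40373043) stood at 35.2 and 37.6 against 70.1 and 78.4 CPM (-1.04, SE 0.199, adjusted p = 0.013), and Cxcl13 at 1.18 and 1.36 against 3.73 and 3.1 (-1.43, SE 0.329, adjusted p = 0.027). The groups were apart in each of the 3, yet each call was lost without any one of the 4 day 0 libraries (1.43 to 1.68 for Il13ra1, -1.11 to -0.96 for Il1r1 and -1.56 to -1.29 for Cxcl13). At day 3 Cxcl14 stood at 0.0429 and 0.0747 CPM in siTead1/4 PMs against 0.421 and 0.228 (-2.42, SE 0.601, adjusted p = 0.037), lost without siControl day 3 replicate 1 or either siTead1/4 library (-2.83 to -1.92). At day 6 it stood at 0.722 and 0.62 against 1.81 and 1.89 (-1.46, adjusted p = 0.12). At day 6 Il20rb stood at 13.2 and 13.6 CPM in siTead1/4 PMs against 4.27 and 5.64 (1.44, SE 0.197, adjusted p = 0.0088), lost without replicate 1 of either group (1.24 to 1.66).

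In C2C12 cells Ccl11, which rose over differentiation in siControl cells, stood at 0.291 and 0.255 CPM in siTead1/4 cells at day 3 against 5.33 and 5.87 (-4.37, SE 0.565, adjusted p = 0.013) and at 1.93 and 1.51 against 5.53 and 5.05 at day 6 (-1.62, adjusted p = 0.4, and by DESeq2 -1.63, adjusted p = 0.0019). The groups did not overlap at either day. The day 3 call was lost without siControl day 3 replicate 1 or 2 or siTead1/4 day 3 replicate 2 (-4.46 to -4.26). At that day the 9 summed muscle markers stood at 6330 and 8260 CPM in the siTead1/4 C2C12 libraries and 15800 and 18100 in the siControl ones, and the part of this in the Ccl11 and Il12a results was not tested. Other members lower in both siTead1/4 C2C12 libraries at day 3 did not pass with edgeR: Cxcl13 stood at 0.0529 and 0.278 against 2.12 and 1.05 CPM (-3.23, adjusted p = 0.091), Il33 at 1.93 and 0.996 against 13.7 and 7.63 (-2.88, adjusted p = 0.086) and Il1b at 1.96 and 1.46 against 4.51 and 4.31 (-1.39, adjusted p = 0.17). DESeq2 called Cxcl13 (-3.27, adjusted p = 0.0032) and Il33 (-2.90, adjusted p = 0.00037).

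At day 0 the C2C12 calls were in the Il1 family. Il1f9, an Il36 ligand (chr2:24041996-24049088), stood at 2.73 and 3.29 CPM in siTead1/4 cells against 0.225 and 0.373 (3.28, SE 0.512, adjusted p = 0.033), and Il1rap (chr16:26581790-26730203) at 9.54 and 7.94 against 21.1 and 24.6 (-1.39, SE 0.204, adjusted p = 0.028). Both were lost without siControl day 0 replicate 1 or 2 or siTead1/4 day 0 replicate 2 (3.00 to 3.71 for Il1f9 and -1.52 to -1.28 for Il1rap). Il1f10 and Il1rn, which lie in the same cluster as Il1f9 on chromosome 2, stood just outside the threshold: Il1f10 went from 3 counts over the group to 105 (46-fold, 95% interval 15.3 to 226, adjusted p = 0.051) and Il1rn from 2.22 and 3.54 CPM to 9.12 and 16.3 (2.13, adjusted p = 0.051). DESeq2 called Il1rn at day 0 (2.13, adjusted p = 2.7e-05). At days 3 and 6 Il1f9 was within 0.115 to 0.354 CPM in all 8 C2C12 libraries. In PMs no count of Il1f10 was seen.

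**Figure D5:**
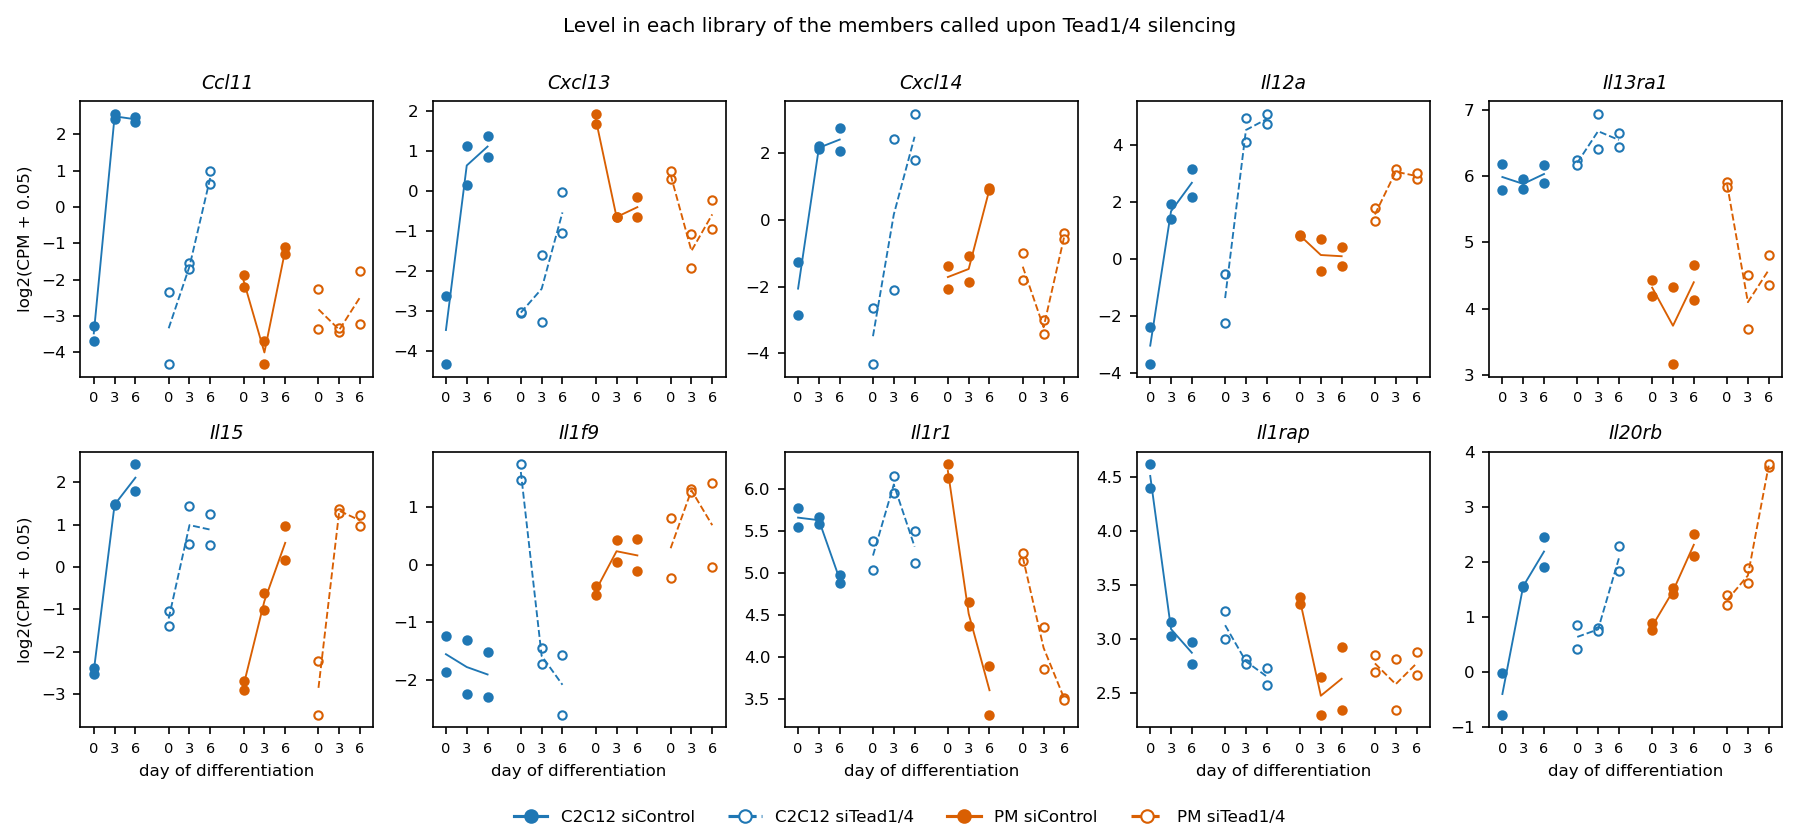
Level of each library, as log2(CPM + 0.05) by day, for the 10 members called upon silencing; filled symbols are siControl and open ones siTead1/4, and lines join the means of the log values. Il12a stood higher in siTead1/4 at days 3 and 6 in both cell types, Ccl11 lower in C2C12 cells, and Il1f9 higher at day 0 of C2C12 cells.

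The siTead1/4 C2C12 replicates spread widely, over all genes as well as in some members. Between the 2 replicates, chi-square per gene (larger where counts are less alike) was 104, 210 and 82.5 at days 0, 3 and 6. It was 41.6, 38.3 and 49.9 in siControl C2C12 cells and 12.3 to 35.4 in PM groups. This spread enters every silencing test in C2C12 cells. Cxcl12 stood at 186 and 24 CPM in siTead1/4 C2C12 cells at day 3 and 166 and 47.1 at day 6, and Cxcl14 at 5.29 and 0.185 and then 9.05 and 3.46, with replicate 1 high each time. Summed fibroblast markers stood at 2340 to 5960 CPM in siTead1/4 C2C12 cells at day 3 and at 2930 to 3670 in siControl, and their part in these values was not tested.

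Members with a known role in muscle that were called upon silencing at no day in either cell type included Il6st, Il4ra, Il6 and Il10rb. Il6st stood at 145 and 123 CPM in siTead1/4 PMs at day 0 against 153 and 136, at 303 and 294 against 316 and 322 at day 3, and at 312 and 276 against 311 and 318 at day 6. Il6 had adjusted p = 0.59, 0.51 and 0.97 in C2C12 cells and 1, 0.84 and 0.89 in PMs. Il11, the ligand of Il11ra1, stood at 0.117 and 0.356 CPM in siTead1/4 PMs at day 0 against 0.848 and 0.761 (-1.73, adjusted p = 0.078), and Il11ra1 at 13.8 and 18.1 against 33.1 and 26.4 at day 3 (-0.91, adjusted p = 0.011), under the fold threshold. A p that misses the threshold does not show that the levels were equal.

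The pathways that read these signals were described from 4 lists of other genes. Upon silencing, none of the 11 chemokine receptors tested in C2C12 cells or 10 in PMs was called by edgeR at any day (7 of 33 and 1 of 30 tests of a gene at a day had an unadjusted p under 0.05), nor any of the 8 other gp130 cytokines and receptors (2 and 7 of 24). Over all genes 0.0457% to 3.3% were called in these comparisons. The calls were 1 of 18 Jak, Stat and Socs genes (Cish, an inhibitor of cytokine receptors, up in PMs by 1.53 at day 0 and 1.48 at day 3, adjusted p = 0.016 and 0.03, where 1.5% and 2.1% of all genes were up) and 2 of 25 NF-kB and Il1 receptor signalling genes (at C2C12 day 0, Irak2 up by 1.04 and Tnfaip3 -1.43, where 0.438% of all genes were called). Over differentiation the receptor of Cxcl12, Cxcr4, rose in C2C12 cells (1.79 at day 3, adjusted p = 0.0086, and 1.84 at day 6, adjusted p = 0.0069) and fell in PMs at day 3 (-1.98, adjusted p = 0.039; -1.56 at day 6, adjusted p = 0.085). The other Cxcl12 receptor, Cxcr7, fell in PMs (-3.52 and -3.88, adjusted p = 2.9e-05 and 1.6e-05). Of the chemokine receptors 3 of 11 rose and 1 fell at day 3 in C2C12 cells (16% and 12.7% of all genes), and 3 of 10 rose and 5 fell in PMs (17.5% and 14.9% of all genes).

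Of the gp130 list 3 of 8 rose and 2 fell at day 6 in C2C12 cells (17.1% and 14% of all genes), and 4 rose and 1 fell in PMs (20.2% and 15.3%). Lif, which signals through Il6st, rose in both (1.86 and 1.82 in C2C12 cells, 3.09 and 5.02 in PMs), as did Osmr, which pairs with Il6st (1.15 and 1.28, 2.17 and 2.96). Cntfr went from no call at day 3 to -2.44 at day 6 in C2C12 cells and rose by 2.29 at day 6 in PMs. Of the Jak, Stat and Socs list 5 of 18 rose and 2 fell at day 3 in C2C12 cells (16% and 12.7% of all genes), and 8 rose and 3 fell in PMs (17.5% and 14.9%). Stat3, the factor downstream of Il6st, rose in both (1.85 and 2.04, 1.68 and 1.98), and the inhibitors Cish and Socs1 fell in both (Cish -2.60 and -2.83, -1.44 and -1.68). Not all inhibitors of the list fell: Socs7 was called up in C2C12 cells at both days and Socs3 in PMs at day 6. Socs2, Socs3 and Socs7 were also called in PMs at day 3. The 3 falls of the list there included Cish and Socs1, so these others did not all fall. Of the NF-kB list 3 of 25 rose and 1 fell at day 3 in C2C12 cells and 4 rose and 1 fell in PMs, against the same shares of all genes. Sigirr, which restrains Il1 receptor signalling, fell in both (-2.37 and -3.14, -4.32 and -4.52), and Irak3, another restraint, rose in both (1.52 and 1.58, 2.23 and 3.49).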

How the data were processed

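RNA of 24 libraries (12 groups of 2) was read as deposited counts per gene: per the labels, poly-A RNA was sequenced without strand, and the submitters' processing notes name CASAVA 1.8.2, TopHat2 2.0.10, Bowtie2 2.1.0, HTSeq 0.6.1, DESeq2 1.8.1 and the mouse build NCBIM37 (mm9). The 48 normalized columns of these libraries and 36 columns of 12 other libraries were not used. Members and gene lists were chosen with earlier results of these data known.

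Genes with low counts were removed (filterByExpr), libraries were scaled by TMM, and edgeR 4.0.16 (R 4.3.3, limma 3.58.1) fitted quasi-likelihood models with 1 mean per group, for each cell type alone (12 libraries) and, across cell types, for all 24. Calls needed a Benjamini-Hochberg adjusted p under 0.05 over all tested genes and a log2 fold change beyond 1 in size. The biological coefficient of variation was 0.242 in C2C12 cells and 0.15 in PMs, so smaller changes pass in PMs. Scripts were tested on simulated counts. Replicates are described as biological, with no more said of them. Named were members called upon silencing or for a difference of effects, the 10 largest called changes of each other comparison, the 5 highest per kilobase, and members with a known role in muscle; others named in the text, and the promoters printed, were chosen after their values were seen. Intervals (95%, exact binomial) and floors of 3 counts cover counting error only. Alternatives were DESeq2 1.42.0, median of ratios size factors, no filter, a replicate block and leaving out each library.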

Additional observations from a re-analysis of the deposited data

Results flagged for a closer look

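Each value here is a difference between the cell types in the same contrast (PMs minus C2C12 cells, log2 scale, from the fit of all 24 libraries), tested as an interaction and called at an adjusted p under 0.05. For the change from day 0 to day 3 in siControl cells the difference was positive for Il11ra1 (2.29), Cx3cl1 (1.47) and Il17ra (1.07). It was negative for Il34 (-1.21), Il20rb (-1.35), Il1r1 (-1.66), Il33 (-3.95), Cxcl5 (-4.20), Cxcl12 (-4.61), Il12a (-5.61), Cxcl13 (-7.56), Il17b (-8.49), Il1b (-9.16) and Ccl11 (-10.5). The calls of Cx3cl1, Il17ra, Il34, Il20rb and Cxcl5 were lost in at least 1 of the alternatives that leave out a library.

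From day 0 to day 6 the difference was 3.71 for Il21r, 2.73 for Il6ra, 2.14 for Il11ra1 and 2.11 for Cx3cl1. In the other direction it was -1.85 for Il1r1, -3.37 for Il33, -3.83 for Cxcl5, -3.95 for Il2rb, -4.85 for Cxcl12, -5.85 for Ccl11, -6.82 for Il12a, -7.72 for Cxcl13, -9.49 for Il17b and -9.54 for Il1b. The calls of Il21r, Il33, Cxcl5 and Il2rb were lost in at least 1 of the alternatives that leave out a library. Both sets share the day 0 libraries. Il17b rests on group totals of 0 counts (C2C12 cells, day 0) and 2 counts (PMs, day 6), so its fitted size depends on the prior count. Ccl11 at day 3 rests on 1 count over the PM group and on 1 and 3 counts in the C2C12 day 0 libraries. Cxcl5 had 3 and 2 counts over the PM groups of days 3 and 6. In the siControl C2C12 libraries of day 0, Il1b had 3 and 4 counts, Cxcl13 4 and 0, and Il12a 1 and 8. Il1b also had 12 and 2 counts in siControl PMs at day 3 and 1 and 9 at day 6. The fitted sizes of all these members are uncertain too.

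Upon silencing the difference was called for Il15 at day 3 (2.63), and was lost in 7 of the 8 alternatives that leave out a library.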

How the results depend on the processing

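Over the 243 calls of a member in a comparison, the direction was kept in every alternative run, and the call was lost for 9 with DESeq2, 1 with median of ratios size factors, 4 without the filter on low counts, and in 254 of 1088 fits that left out a library. Upon silencing, the 2 calls of C2C12 cells at day 0 became 4 with DESeq2, 4 with median of ratios size factors, 11 without the filter and 0 to 3 without a library. The 2 at day 3 became 5 with DESeq2, 9 without the filter and 0 to 3 without a library, and the 0 at day 6 became 3 with DESeq2 and 5 without the filter. In PMs the 3 at day 0 became 5 without the filter and 0 whichever library was left out, the 3 at day 3 became 5 and 1 to 4, and the 2 at day 6 became 4 and 0 to 2. For the difference of silencing effects the 0 at day 0 became 1 without the filter, the 1 at day 3 became 3 with DESeq2, 4 without the filter and 0 to 1 without a library, and the 0 at day 6 became 1 with DESeq2. Over differentiation the 27 calls of C2C12 cells at day 6 became 17 to 22 without a library and the 14 differences between the cell types at day 3 became 9 to 12. The share of all genes called moved as well. Upon silencing in C2C12 cells it was 1.02%, 2.41% and 0.572% with DESeq2 at days 0, 3 and 6. Without the filter it was 1.92%, 4.22% and 1.55% there and 2.24%, 3.11% and 1.3% in PMs. With median of ratios size factors it was 0.49% in C2C12 cells at day 0. For the difference of effects it was 1.82% and 0.221% with DESeq2 at days 3 and 6. Without the filter it was 0.324% and 3.14% at days 0 and 3. The cause of these moves was not tested. A fit without a library has fewer samples.

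With the replicate block, the calls upon silencing were 3, 2 and 0 in C2C12 cells and 5, 3 and 2 in PMs at days 0, 3 and 6. Of all genes the block called 0.536%, 1.69% and 0.0784% in C2C12 cells and 3.63%, 4.91% and 1.8% in PMs. Added at day 0 were Il11 (-1.68, adjusted p = 0.047) and Il17rb (1.59, adjusted p = 0.028) in PMs and Il1rn (2.13, adjusted p rounded to 0.05) in C2C12 cells. Of the 243 calls 9 were lost with the block. Deviations of same-numbered libraries from their group means correlated at -0.203 to 0.525 over 15 pairs of groups in C2C12 cells (median 0.0859, over 0.1 in 6) and 0.0695 to 0.539 in PMs (median 0.219, over 0.1 in 14), and the labels name no shared animal, batch or day, so the numbers were not taken to pair the libraries.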
